A study of Mus musculus with 6 samples.

Results

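The genes of the integrin α and β subunits and of the laminin chains were followed in mouse melanoma cells of the line D4M-3A after knockout of Nfkbiz, the gene of the transcriptional co-regulator IκBζ. Members were taken by gene symbol, from Itga, Itgb 1 to 8 and Lama, Lamb or Lamc followed by a subunit number or letter. This gave 37 of the 43043 genes listed, namely 18 integrin α, 8 integrin β and 11 laminin genes. RNA was sequenced from 3 control (Ctrl) samples, which had received an empty CRISPR-Cas9 construct, and 3 Nfkbiz knockout (Nfkbiz KO) samples, which had received a Nfkbiz CRISPR-Cas9 construct. Both groups were transduced with lentivirus, selected with puromycin and grown untreated in medium with serum. Whether the knockout cells were a clone or a pool is not given in the sources used here, and effects of cutting by Cas9 cannot be told apart from effects of IκBζ loss in this design.

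Integrins are cell surface receptors made of an α and a β subunit, which tie the cytoskeleton to the extracellular matrix or to other cells. The α subunit largely sets the ligand. Some α subunits bind collagen, some laminin, some the RGD motif of fibronectin and vitronectin, and some are found mainly on leukocytes. Laminins are matrix proteins of an α, a β and a γ chain that form the sheet of basement membranes. In melanoma, both families are known for their part in adhesion, migration and invasion.

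Between 32219900 and 44927203 reads were counted on genes per sample, so that a count of 0 allows up to 0.0668 to 0.0931 CPM, which are reads scaled to library size, counting error only. The targeted gene had 69.1, 75.2 and 63.4 TPM, transcript abundance scaled by transcript length and library, in Ctrl and 34.8, 34.7 and 35.1 TPM in Nfkbiz KO. Its log2 fold change relative to Ctrl (log2FC) was -0.98, with a standard error (SE) of 0.056, and these reads do not show whether protein was lost. The study itself examined IκBζ protein in these cells by immunoblot and reports an efficient loss. The 3 Ctrl samples differed more among themselves (chi-square per degree of freedom 27.85 to 71.36 between pairs) than the 3 Nfkbiz KO samples did (3.53 to 6.24). Pigment cell markers were largely missing from this melanoma line, as Sox10, Tyr and Kit had 0 reads in all 6 samples, and 2 of 8 such markers, Mitf and Pmel, were tested and passed in neither direction. Leukocyte markers were low, with 2 of 10, Cd3e and Nkg7, at 0 reads and Ptprc at 0 to 6 reads per sample. Their summed level was 11.2 to 15.3 TPM in Ctrl and 5.01 to 7.41 TPM in Nfkbiz KO, and S100a8, the only one tested, was lower in Nfkbiz KO. S100a8 had 42 to 135 reads per sample and no other leukocyte marker more than 19, so by reads the list rested largely on S100a8. Platelet markers summed to at most 0.645 TPM and were at 0 reads for 4 of 6 genes. The 6 endothelial markers summed to 0.556 to 0.833 TPM in Ctrl and 1.34 to 1.86 TPM in Nfkbiz KO, with Tie1 at 0 reads and 1 of the 2 tested higher. The 6 keratinocyte markers summed to 2.49 to 3.41 TPM in Ctrl and 2.5 to 2.59 TPM in Nfkbiz KO, with Krt1 and Epcam at 0 reads. Of 6 genes common in fibroblasts, 5 were tested and 3 were lower in Nfkbiz KO, with a summed level of 622 to 707 TPM in Ctrl and 524 to 564 TPM in Nfkbiz KO. The part of any such cells in the results was not tested.

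Promoter sequences are shown for the members that rose most and fell most, Itga4 and Itga2 against Itgb7 and Itgb5, since members that move together invite a look at shared sequence. The sequences are those of RefSeq (GRCm38.p6), from 250 bases before to 50 bases after the transcription start, 5′ to 3′ on the gene's strand. Each was found once, without mismatch, on the same chromosome of GRCm39, at chr2:79085520-79085819 on the plus strand for Itga4, chr13:115068587-115068886 on the minus strand for Itga2, chr15:102140321-102140620 on the minus strand for Itgb7 and chr16:33649785-33650084 on the plus strand for Itgb5. Capitals mark the GC box GGGCGG or its reverse complement, which binds factors of the Sp family.
Itga4: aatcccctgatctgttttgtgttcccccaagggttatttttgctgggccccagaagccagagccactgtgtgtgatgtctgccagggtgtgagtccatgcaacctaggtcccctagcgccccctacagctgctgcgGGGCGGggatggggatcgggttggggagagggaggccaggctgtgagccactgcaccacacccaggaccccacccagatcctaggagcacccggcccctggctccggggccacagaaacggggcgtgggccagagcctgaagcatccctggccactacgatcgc
Itga2: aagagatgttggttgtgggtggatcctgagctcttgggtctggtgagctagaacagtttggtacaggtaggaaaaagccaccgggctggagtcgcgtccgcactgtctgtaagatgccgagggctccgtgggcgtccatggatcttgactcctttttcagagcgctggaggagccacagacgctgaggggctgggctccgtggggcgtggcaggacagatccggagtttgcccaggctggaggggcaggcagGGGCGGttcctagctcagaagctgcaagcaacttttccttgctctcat
Itgb7: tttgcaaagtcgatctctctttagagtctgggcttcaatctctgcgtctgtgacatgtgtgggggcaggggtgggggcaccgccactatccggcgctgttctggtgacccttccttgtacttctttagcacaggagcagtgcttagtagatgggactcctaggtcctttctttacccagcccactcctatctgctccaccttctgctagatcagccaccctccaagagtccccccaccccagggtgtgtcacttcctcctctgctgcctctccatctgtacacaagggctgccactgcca
Itgb5: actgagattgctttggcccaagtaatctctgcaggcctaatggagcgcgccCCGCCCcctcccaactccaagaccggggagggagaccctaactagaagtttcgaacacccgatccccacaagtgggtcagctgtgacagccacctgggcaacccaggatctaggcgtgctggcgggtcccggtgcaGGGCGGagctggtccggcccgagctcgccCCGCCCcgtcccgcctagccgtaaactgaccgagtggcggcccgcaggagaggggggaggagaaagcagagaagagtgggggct
Itgb5 held 3 GC boxes, Itga4 and Itga2 held 1 each and Itgb7 held 0. RefSeq gave promoters for 23 of the 37 members, 26 windows in all, and both strands were searched. A GC box was present in 11 of the 23 genes and in 35.7% of all 32851 promoters. For every motif, members were counted by gene and all promoters by window, so the 2 figures are not directly comparable. The κB consensus, the site of NF-κB, was found in Lamb3 alone (4.51% of all promoters). The STAT motif TTCNNNGAA was found in Itga10 and Lamb2 (8.3%), and the AP-1 motif TGANTCA in Itga3, Itga9 and Itgax (7.81%). None of these last 3 motifs lay in the 4 promoters printed above. A match describes letters in the window and does not show binding.

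In D4M-3A cells, RNA of the integrin and laminin families was concentrated in a few subunits. Levels are compared between genes in TPM, which is per transcript length. Among the α subunits of Ctrl cells, Itga3 was highest with 205 ± 23.5 TPM (SD, n = 3), followed by Itga5 with 170.1 ± 12.7, Itga6 with 108 ± 14.7, Itgav with 74.0 ± 8.29 and Itga7 with 34.9 ± 2.92 TPM. The values of neighbours in this order did not overlap. The next α subunits were Itga2 with 4.97 ± 0.784, Itga8 with 3.03 ± 0.5 and Itga4 with 2.22 ± 0.551 TPM, of which Itga8 and Itga4 overlapped. Among the β subunits, Itgb1, the common partner of most α subunits, had 1091 ± 77.6 TPM and Itgb5, a partner of αV, had 188 ± 9.37 TPM. Itgb7 followed with 3.34 ± 0.183 and Itgb8 with 2.51 ± 0.272 TPM. The laminin genes were led by Lamb1 (215 ± 21.8 TPM), Lamc1 (118 ± 21.5 TPM) and Lama5 (114 ± 19.7 TPM), the chains of a laminin that is widespread in adult basement membranes. Lamc1 and Lama5 overlapped. Lamb2 had 19.6 ± 2.1 TPM and Lama4 4.15 ± 0.554 TPM, each without overlap with the gene named before it.

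**Figure D1:**
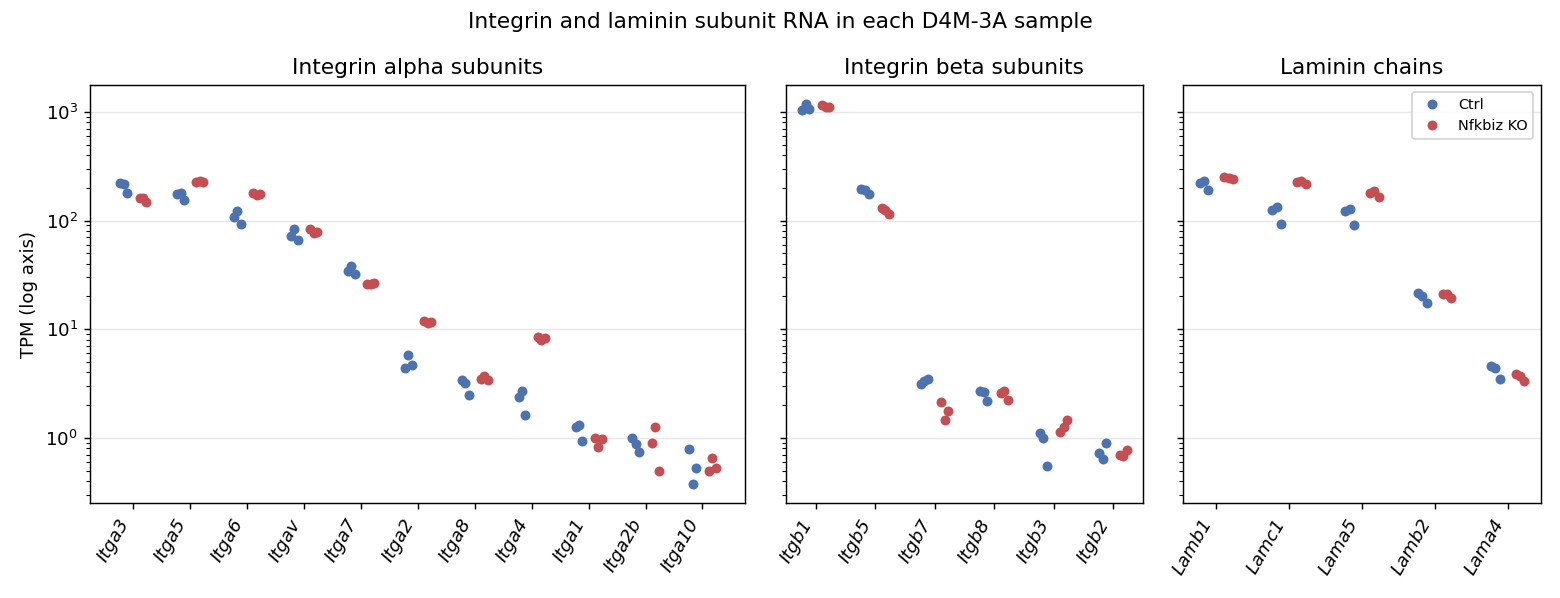
TPM of the integrin α, integrin β and laminin genes described here with a mean of at least 0.5 TPM in either group, on a log axis. Each point is a sample, 3 Ctrl in blue and 3 Nfkbiz KO in red, and genes are ordered by the Ctrl mean. Itgb1 stands near 1091 TPM in Ctrl, and Itga4 and Itga2 show separate groups at low levels.

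Of the 37 members, 29 had at least 10 reads in 3 or more samples and were tested. Differences between the groups were tested with edgeR's quasi-likelihood test on gene reads, and adjusted p-values are after Benjamini-Hochberg over all 14533 genes tested. With adjusted p-values up to 0.05 called, 7 members were higher and 6 were lower in Nfkbiz KO. With limma on log2(TPM + 1) the split was 7 higher and 4 lower, as Itga1 and Lama4 did not pass. Together the 13 called by edgeR were 44.8% of the members tested, and 36.3% of all genes tested passed (18.0% higher and 18.2% lower). The groups did not overlap in 15 of the 29, against 48.2% of all genes tested. The median log2FC of the members was 0.01 and that of all genes -0.02, while the median absolute log2FC was 0.35 for members and 0.20 for all genes. A fold change of at least 1.5 was also reached by 7 members, against 11.5% of all genes tested. Among them, Itga4, Itga2, Itga6 and Lamc1 were higher and Itgb7 and Itgb5 were lower. The study's own thresholds ask in addition for more than a 2-fold change and a difference of over 4, taken here as TPM. They left 2 members, Itga4 and Itga2, both higher in Nfkbiz KO, against 1.78% of all genes tested in either direction and 0.75% higher. The methods name no unit for the difference, and with 4 taken as RPKM 0 members were left. Without the difference of 4 TPM these were again the only 2, against 5.88% of all genes. Itga2 is also among the genes that the study displays from these samples. The calls of Itga2 and Itga4 both come from the study's own samples, so neither is independent evidence.

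**Figure D2:**
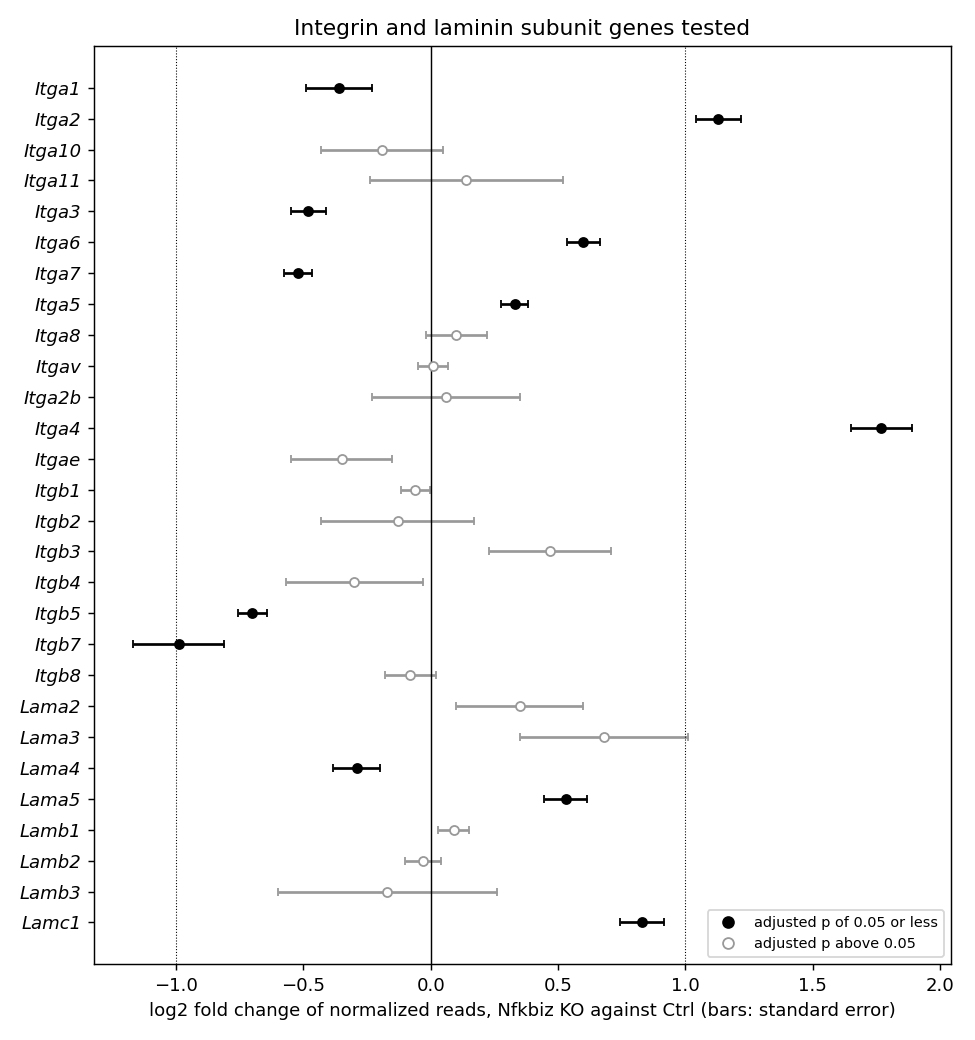
Log2FC in Nfkbiz KO against Ctrl from edgeR for tested members described here, with SE as bars. Filled points passed at an adjusted p of 0.05, and dotted lines mark a fold change of 2. Itga4 (1.77) and Itga2 (1.13) lie beyond the dotted line, and Itgb7 (-0.99) lies just inside it.

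Of the collagen-binding α subunits, Itga2 rose, Itga1 was slightly lower, and Itga10 and Itga11 did not pass the test. Itga2 encodes α2, which joins β1 to form a collagen receptor that also binds some laminins. Its level was 4.37, 5.85 and 4.67 TPM in Ctrl against 12, 11.4 and 11.7 TPM in Nfkbiz KO. All 3 Nfkbiz KO samples lay above all 3 Ctrl samples. The log2FC was 1.13 (SE 0.089, edgeR adjusted p = 8.5e-07), from 350 to 1116 reads per sample. Itga2 lies on the minus strand of chromosome 13, from 114969617 to 115068636 in GRCm39. There, its whole span of 99020 bases lies within Mocs2 on the opposite strand, and 444 of its 7133 exon bases overlap exons of Mocs2. The reads were counted without regard to strand and can lie outside exons. Mocs2 itself had a log2FC of -0.13 (SE 0.079). Itga1, whose α1 chain also binds collagen, is the neighbour of Itga2 on chromosome 13, from 115089632 to 115238677. It had 1.25, 1.32 and 0.94 TPM in Ctrl against 1.0, 0.832 and 0.984 TPM in Nfkbiz KO, so that the groups overlapped in TPM although not in normalized reads. With a log2FC of -0.36 (SE 0.13, edgeR adjusted p = 0.043), it passed in 1 of the 6 fits that each left out a sample, the one without Ctrl replicate 3 (log2FC -0.47). The other 5 fits gave log2FC from -0.42 to -0.28 with adjusted p-values up to 0.17 (edgeR), and 87.2% of its reads were unique. Exons of Itga1 also share 2180 of 21337 bases with Mocs2, and 685 with Gm49395 on the same strand. Itga10 had 36 to 71 reads and Itga11 10 to 18 reads per sample, with log2FC of -0.19 (SE 0.24) and 0.14 (SE 0.38). For Itga10, 1739 of 5186 exon bases overlap Gm42957 on the same strand, and 88.8% of its reads were unique. Itga11 had at most 0.0463 TPM, with 0 TPM in Ctrl replicate 3 (10 reads) and Nfkbiz KO replicate 2 (18 reads). The TPM of Itga2 relative to Itga1 was 4.29 ± 0.748 in Ctrl and 12.5 ± 0.987 in Nfkbiz KO samples (SD, n = 3 each).

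The laminin-binding α subunits moved in opposite directions. Itga6, which encodes α6, a partner of β1 and of β4, had 108, 122 and 92.8 TPM in Ctrl against 178, 173 and 175 TPM in Nfkbiz KO. Each Nfkbiz KO sample exceeded every Ctrl sample, with a log2FC of 0.60 (SE 0.065, edgeR adjusted p = 1.5e-05). Itga3, which encodes α3, a receptor for laminins with an α3 or α5 chain, had 221, 216 and 178 TPM in Ctrl against 162, 162 and 148 TPM in Nfkbiz KO. It fell, with a log2FC of -0.48 (SE 0.067, edgeR adjusted p = 0.00013). Itga7, known for its laminin receptor in muscle, fell from 34.9 ± 2.92 to 26.1 ± 0.476 TPM, with a log2FC of -0.52 (SE 0.055, edgeR adjusted p = 1.1e-05). For Itga3 and Itga7 too, the samples of the groups did not overlap. The ratio of Itga6 to Itga3 TPM was 0.525 ± 0.0386 in Ctrl and 1.11 ± 0.0586 in Nfkbiz KO. The summed TPM of Itga3, Itga6 and Itga7 was nevertheless 348 ± 38.8 in Ctrl and 359 ± 8.14 in Nfkbiz KO (exact two-sided permutation test, p = 0.9). Itgb4, the β4 partner of α6 in hemidesmosomes, had 31 to 53 reads per sample and a log2FC of -0.30 (SE 0.27), and 1074 of its 7218 exon bases overlap Galk1.

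Of the α subunits that recognize RGD, Itga5 rose and Itgav, Itga8 and Itga2b did not pass the test. Itga5, the fibronectin receptor α5, increased from 170.1 ± 12.7 to 229 ± 4.07 TPM, without overlap of the samples and with a log2FC of 0.33 (SE 0.053, edgeR adjusted p = 0.00041). Itgav, which encodes αV, the partner of several β subunits, had 74.0 ± 8.29 and 79.6 ± 3.08 TPM. Its log2FC was 0.01, with an approximate 95% interval from -0.11 to 0.12. For Itga8 the log2FC was 0.10 (interval from -0.14 to 0.33), at 3.03 ± 0.5 and 3.55 ± 0.18 TPM. Itga2b, the platelet αIIb, had 49 to 106 reads per sample and a log2FC of 0.06 (interval from -0.50 to 0.62).

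Itga4 showed the largest fold change of the 29 members tested. It encodes α4, which binds VCAM-1 and fibronectin with β1 and the mucosal addressin MAdCAM-1 with β7. Its level was 2.36, 2.68 and 1.61 TPM in Ctrl against 8.49, 8.02 and 8.23 TPM in Nfkbiz KO. The lowest Nfkbiz KO sample was therefore well above the highest Ctrl sample, and Ctrl replicate 3 was the lowest of all. The log2FC was 1.77 (SE 0.12, edgeR adjusted p = 3.1e-07), from 310 to 1525 reads per sample, and leaving out any of the samples gave 1.59 to 1.90. Itga4 lies on the plus strand of chromosome 2, from 79085660 to 79163467 in GRCm39, and 3481 of its 16732 exon bases overlap Cerkl on the other strand. Cerkl had 110 to 222 reads per sample and a log2FC of 0.44 (SE 0.16). With uniquely mapped reads alone, which were 91.6% of those on Itga4, the log2FC of Itga4 was 1.82. Of its ligand genes, Vcam1 rose from 125 ± 10.1 to 191 ± 8.82 TPM, a log2FC of 0.51 (SE 0.058). Fn1, the fibronectin gene, was lower, with 871 ± 176 and 733 ± 32.5 TPM and a log2FC of -0.34 (SE 0.096, edgeR adjusted p = 0.015). Fn1 passed in 1 of the 6 fits that left out a sample. Madcam1 had 0 to 3 reads per sample and was not tested. Fn1 and Madcam1 were named after their values were seen. Itga9, the closest relative of Itga4, had 0 to 9 reads per sample and was not tested.

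Of the 5 α subunits found mainly on leukocytes, 4 were at or near the limit of detection. Itgal and Itgax had 0 reads in all 6 samples, Itgad had 0 to 2 and Itgam 0 to 3 reads, and none of these 4 was tested. Of the exon bases of Itgam, 3450 of 5118 overlap Gm49368 on the same strand, and 12.5% of the reads on Itgam were unique. Itgae, which encodes αE, the receptor of E-cadherin, had 63 to 102 reads per sample but at most 0.149 TPM, which is computed from exons. Its log2FC was -0.35 (SE 0.2, edgeR adjusted p = 0.21).

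**Figure D3:**
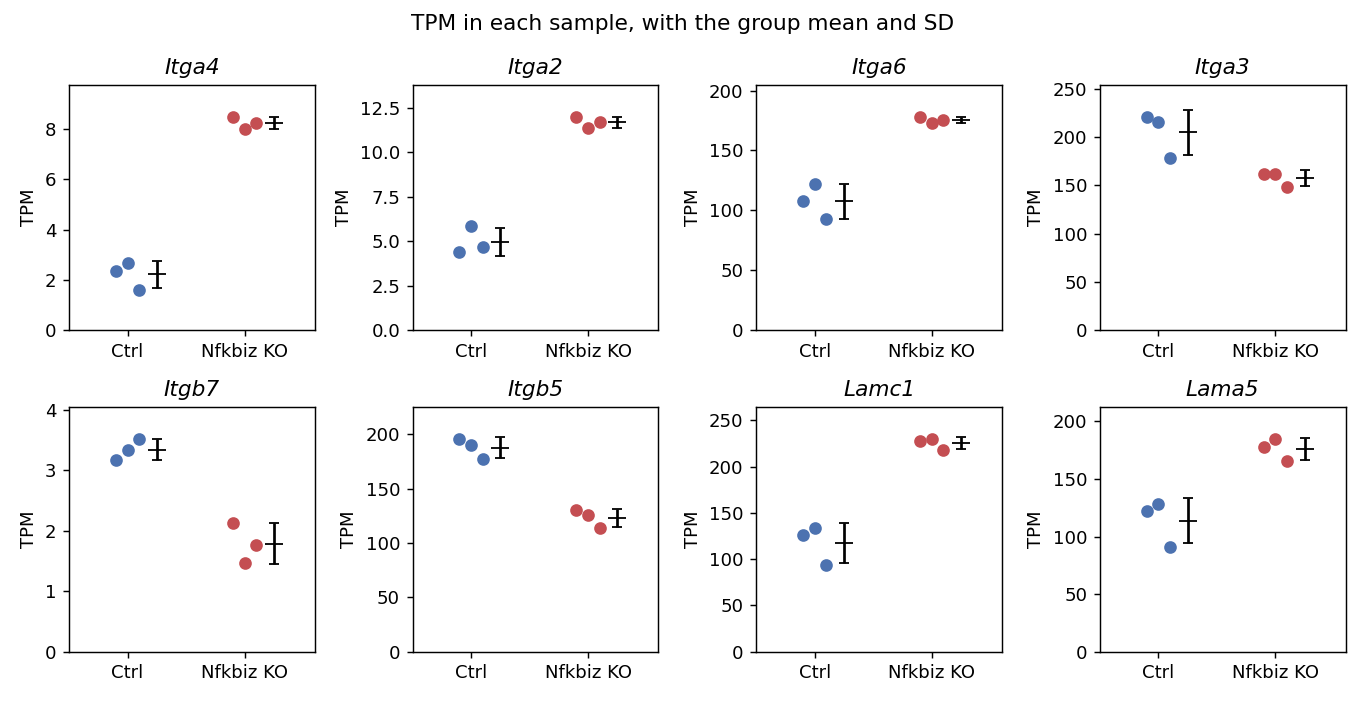
TPM of 6 members that passed with a fold change of at least 1.5, and of Itga3 and Lama5, in each sample, with the group mean and SD beside the points (n = 3). The groups are separate in all 8 panels. Ctrl replicate 3, the rightmost blue point, is the lowest Ctrl sample for Itga4, Itga6, Itga3, Itgb5, Lamc1 and Lama5.

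Among the β subunits, 2 fell, 0 rose and 5 did not pass the test. Itgb5, whose β5 pairs with αV to bind vitronectin, had 196, 189.9 and 177 TPM in Ctrl against 129.9, 126 and 114 TPM in Nfkbiz KO. The highest Nfkbiz KO sample was below the lowest Ctrl sample. Its log2FC was -0.70 (SE 0.058, edgeR adjusted p = 1.4e-06). Itgb5 spans 33649988 to 33771137 on the plus strand of chromosome 16 (GRCm39). Itgb7, whose β7 joins α4 or αE on lymphocytes, had 3.16, 3.34 and 3.52 TPM in Ctrl against 2.13, 1.46 and 1.77 TPM in Nfkbiz KO. These groups did not overlap either. With 56 to 148 reads per sample, the log2FC was -0.99 (SE 0.18, edgeR adjusted p = 0.00083), just short of a fold change of 2. Itgb7 is on chromosome 15 of the same build, from 102124429 to 102140379, on the minus strand. The α4 and β7 partners thus moved in opposite directions, and the ratio of Itga4 to Itgb7 TPM was 0.668 ± 0.186 in Ctrl and 4.71 ± 0.753 in Nfkbiz KO.

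Itgb1 had 1042, 1180.3 and 1051 TPM in Ctrl against 1143, 1095 and 1108 TPM in Nfkbiz KO. The samples were interleaved, and the log2FC was -0.06, with an approximate 95% interval from -0.18 to 0.05. Itgb8, which with αV activates latent TGF-β, had 2.51 ± 0.272 and 2.51 ± 0.246 TPM (log2FC -0.08, interval from -0.29 to 0.12). For Itgb3, the partner of αV and αIIb, 0.887 ± 0.298 and 1.28 ± 0.161 TPM were measured. Its log2FC of 0.47 (SE 0.24, edgeR adjusted p = 0.15) did not pass, at 45 to 111 reads per sample. Itgb2, the leukocyte β2, had 24 to 45 reads per sample and a log2FC of -0.13 (SE 0.3), and Itgb6, an epithelial subunit, had 0 to 7 reads and was not tested.

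The make-up of the α subunit RNA therefore differed between the groups. As percent of the summed α TPM, Itga3 made up 33.9 ± 1.27% in Ctrl and 22.7 ± 0.776% in Nfkbiz KO, Itga5 28.2 ± 0.81% and 33 ± 0.587%, and Itga6 17.8 ± 0.836% and 25.3 ± 0.484% (SD, n = 3 each). For each of these 3 subunits the samples of the groups did not overlap. In Nfkbiz KO the order was Itga5, Itga6, Itga3, Itgav and Itga7, again without overlap between neighbours, so that Itga3 stood below Itga5 and Itga6. Itgav had shares of 12.2 ± 0.598% and 11.5 ± 0.383%, with overlap. Itga2 and Itga4 stayed small, with 1.69 ± 0.0532% and 1.19 ± 0.0349% of the α TPM in Nfkbiz KO. Of the β TPM, Itgb1 took 84.8 ± 1.02% in Ctrl and 89.6 ± 0.521% in Nfkbiz KO, and Itgb5 14.6 ± 0.989% and 9.9 ± 0.519%. All 18 α genes together had 605 ± 60.4 TPM in Ctrl against 693 ± 12.1 TPM in Nfkbiz KO, a log2 ratio of 0.20 (exact two-sided permutation test, p = 0.1, which is as low as 3 samples against 3 can go). This ratio was 0.12 without Ctrl replicate 3 and 0.13 from summed RPKM, and the median log2FC of all genes was itself 0.06 to 0.08 when computed from TPM. The 8 β genes had 1286 ± 79.7 and 1245 ± 29.5 TPM, a log2 ratio of -0.05 (same exact test, p = 0.5), which was -0.11 from summed RPKM and turned to 0.01 without Ctrl replicate 2.

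**Figure D4:**
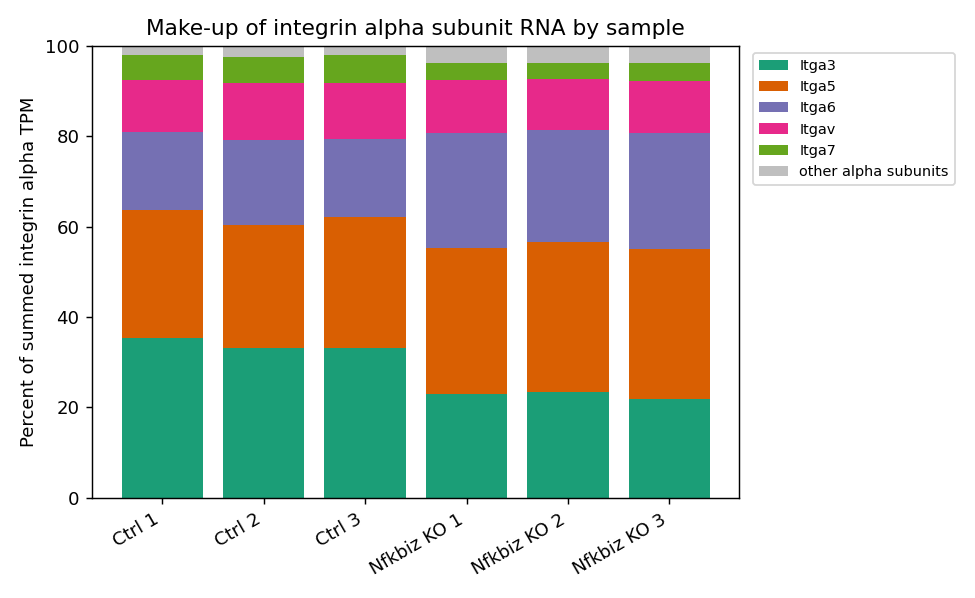
Percent of the summed integrin α TPM taken by each of the 5 most abundant α subunits and by the other 13 together, in each of the 6 samples. The Itga3 segment shrinks from 33.1% to 35.4% in the Ctrl samples to 21.8% to 23.3% in the Nfkbiz KO samples, and the Itga6 segment widens.

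Among the laminin genes, Lamc1 and Lama5 rose, Lama4 was lower, and Lama2, Lama3, Lamb1, Lamb2 and Lamb3 did not pass the test. Lamc1, which encodes the γ1 chain of most laminins, had 126, 134 and 93.3 TPM in Ctrl against 228, 230.1 and 218 TPM in Nfkbiz KO. All Nfkbiz KO samples were higher than all Ctrl samples, of which replicate 3 was the lowest. The log2FC was 0.83 (SE 0.087, edgeR adjusted p = 1.1e-05) and was 0.71 or more when any of the samples was left out. Lamc1 spans 153094597 to 153208774 on the minus strand of chromosome 1 (GRCm39). Lama3 and Lamb3, chains found mainly in epithelia, were scarce. Lama3 had 13 to 40 reads and Lamb3 10 to 31 reads per sample, with log2FC of 0.68 (SE 0.33, edgeR adjusted p = 0.14) and -0.17 (SE 0.43).

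Lama5, the α5 chain, had 122, 128 and 91.3 TPM in Ctrl against 178, 185 and 166 TPM in Nfkbiz KO. These samples did not overlap, and the log2FC was 0.53 (SE 0.085, edgeR adjusted p = 0.00042). Lama4, the α4 chain of vessel and muscle laminins, had 4.15 ± 0.554 and 3.63 ± 0.283 TPM, with a log2FC of -0.29 (SE 0.092, edgeR adjusted p = 0.025). Its groups overlapped in TPM though not in normalized reads, and it did not pass without Ctrl replicate 1 (log2FC -0.22), Nfkbiz KO replicate 2 (-0.30) or Nfkbiz KO replicate 3 (-0.25). Exons of Lama4 share 806 of 15715 bases with Fam229b on the opposite strand. Lama2, at 30 to 55 reads per sample, had a log2FC of 0.35 (SE 0.25). Lama1 had 0 reads in all 6 samples and Lamc3 0 to 6 reads per sample. Lamb1, the β1 chain, had 220.1, 233 and 191 TPM in Ctrl against 252, 246 and 239.6 TPM in Nfkbiz KO. Although these values did not overlap, its log2FC of 0.09 (interval from -0.02 to 0.21, edgeR adjusted p = 0.24) did not pass the test. Lamb2 had 19.6 ± 2.1 and 20.6 ± 1.06 TPM, and its log2FC was -0.03 (interval from -0.17 to 0.10).

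The levels of the 3 main laminin chains relative to each other also differed between the groups, without overlap of the samples. The ratio of Lamc1 to Lamb1 TPM was 0.574, 0.573 and 0.489 in Ctrl and 0.904, 0.937 and 0.909 in Nfkbiz KO. That of Lama5 to Lamb1 was 0.527 ± 0.0425 in Ctrl and 0.717 ± 0.0305 in Nfkbiz KO. Lama5 relative to Lamc1 was 0.967 ± 0.0116 in Ctrl and 0.782 ± 0.0188 in Nfkbiz KO. All 11 laminin genes summed to 475 ± 65.2 TPM in Ctrl against 678 ± 21.6 TPM in Nfkbiz KO, a log2 ratio of 0.52 (exact two-sided permutation test, p = 0.1, again the lower limit). The shift of all genes on the TPM scale applies to this sum too.

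Other genes of the pathway were taken from 3 lists. Of 36 tested integrin adaptor and signaling genes, 11 were higher, 3 were lower and 22 did not pass the test, with a median log2FC of 0.05. The largest increases were those of Parvb, a parvin that binds integrin-linked kinase, with 0.62 (SE 0.049), of Tns1, a tensin, with 0.58 (SE 0.066), and of Arhgef7, a guanine nucleotide exchange factor at focal adhesions, with 0.57 (SE 0.066). Rap1b, a small GTPase of integrin activation, had 0.55 (SE 0.051) and was named after its value was seen. The 3 that fell were Tns4 at -1.91 (SE 0.48, from 2 to 29 reads per sample), Kank1, a talin-binding protein, at -0.67 (SE 0.077), and Pxn, the adaptor paxillin, at -0.20 (SE 0.057). Pxn passed in 3 of the 6 fits that left out a sample, and the number of lower adaptor genes was 5 without Ctrl replicate 3.

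Of 19 tested genes of laminin binding and the basement membrane, 4 were higher and 6 lower, with a median log2FC of -0.09. Leaving out Nfkbiz KO replicate 1 or replicate 2 left 2 higher, and Plec and Ntn4 (log2FC 0.22, SE 0.06, a secreted netrin named after its value was seen) passed in 4 of the 6 fits that left out a sample. Smoc2, a matricellular protein, rose from 2.95 ± 0.107 to 24 ± 0.938 TPM, with a log2FC of 2.85 (SE 0.068). The nidogens, which link laminin to collagen IV, moved in opposite directions. Nid2 rose by 1.06 on the log2 scale (SE 0.15) and Nid1 had -0.60 (SE 0.074). Plec, which anchors keratin filaments at hemidesmosomes, had 0.27 (SE 0.074). The largest decreases were those of Fbln2, a fibulin of the basement membrane, from 137 ± 10.8 to 53.0 ± 3.92 TPM with a log2FC of -1.47 (SE 0.062), and of Npnt, a ligand of α8β1, with -1.21 (SE 0.28) from 15 to 56 reads per sample.

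Of 23 tested integrin ligands other than laminins, 7 were higher and 10 lower, with a median log2FC of 0.02. The largest increases were those of Tgfbi (0.76, SE 0.069), Postn (0.73, SE 0.15) and Vcam1 (0.51, SE 0.058), which encode matrix proteins and the ligand of α4β1. The largest decreases were those of Thbs2, a thrombospondin (-0.74, SE 0.057), Tnxb, a tenascin (-0.68, SE 0.23, from 36 to 75 reads per sample), and Ccn1, a matricellular protein (-0.59, SE 0.053). Tnxb passed in 1 of the 6 fits that left out a sample, and its adjusted p was 0.058 with DESeq2 and 0.061 in edgeR with a replicate block. With limma on log2(TPM + 1), 6 ligand genes were lower in place of 10. The genes of these lists that passed in either direction were 38.9%, 52.6% and 73.9% of those tested in the 3 lists, in this order, beside 36.3% of all genes tested. The lists were chosen with earlier results of these data known and were not matched to all genes by level. The percentages therefore do not show that these lists changed more than comparable genes.

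**Figure D5:**
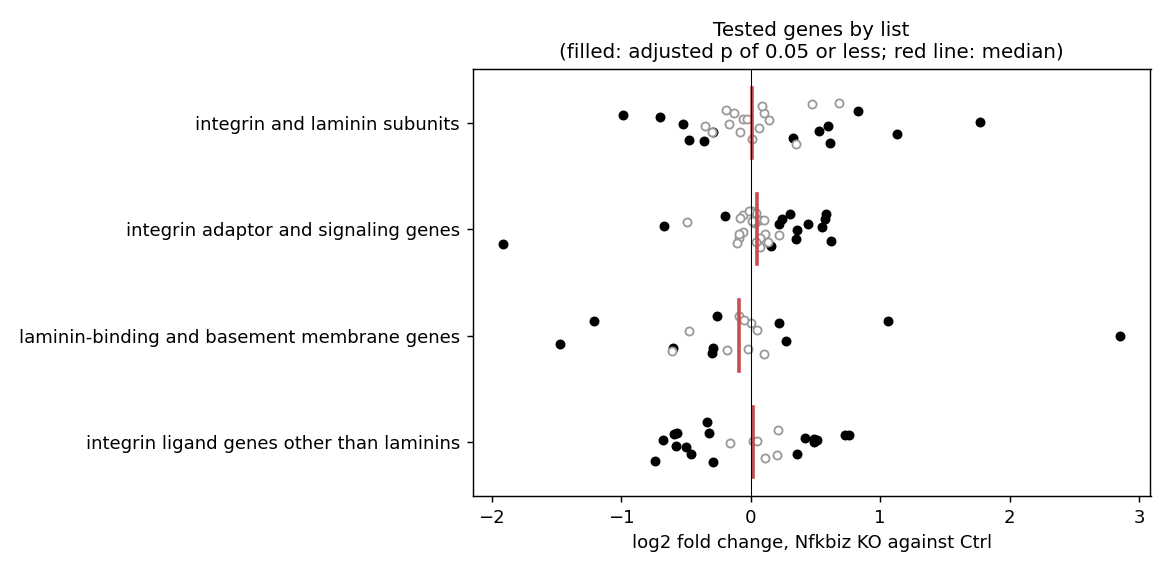
Log2FC in Nfkbiz KO against Ctrl for each tested gene of 4 lists, with filled points for genes that passed and a red line at the median. Points are spread vertically only to separate them. All 4 medians lie between -0.09 and 0.05, with genes on both sides, and Smoc2 at 2.85 is the point farthest to the right.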

How the data were processed

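RNA sequencing of 3 Ctrl and 3 Nfkbiz KO samples of D4M-3A cells was used, grouped by their titles. Mapping by the authors used CLC Genomics Workbench, per the study's methods to GRCm39 and per the labels' processing notes to GRCm 38, ignoring strand. The files hold no coordinates, so the build was not settled here. The deposited tables give total and uniquely mapped gene reads as raw counts, and TPM and RPKM, which the authors computed from exons and wrote with decimal commas, read here as points. The tested gene reads can lie outside exons, as 2105 to 2271 genes per sample had reads but 0 RPKM. Total counts were tested with edgeR 4.0.16 in R 4.3.3 (TMM factors 0.978 to 1.011, genes with at least 10 reads in 3 samples, quasi-likelihood test, Benjamini-Hochberg over 14533 genes). Standard errors are the log2 fold change divided by the square root of F, and approximate 95% intervals use the normal distribution. Non-overlap was read from log2 CPM.

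The procedure was run on simulated counts with the same spread in both groups. In the data the Ctrl samples differed more among themselves, so that run does not measure false calls here. The methods state independent replicates. Within groups, no 2 samples were duplicates (chi-square per degree of freedom 3.53 to 71.36). Alternatives were RLE factors, unique reads, other filters, the likelihood-ratio test of edgeR, DESeq2 1.42.0, limma 3.58.1 on log2(TPM + 1) and log2(TPM + 0.1), a replicate block, each sample left out, and other call thresholds. Members and lists were chosen with earlier results of these data known. Values per sample are given for members that passed with at least a 1.5-fold change, and for others named later after their values were seen. Of the pathway lists, the 3 largest changes in each direction were named, as were any others where the text says so. The values of 1 member are not reported here. Gene coordinates and overlaps are from GENCODE on GRCm39, by symbol, for all 37 members.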

Additional observations from a re-analysis of the deposited data

How the results depend on the processing

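Of the 13 members with an adjusted p of 0.05 or less, 11 kept it under all 9 alternatives with all samples and in all 6 fits without a sample. The others were Itga1 and Lama4. With a sample left out, 7 members were higher in every fit, 4 to 6 were lower, and 2 were past the study's thresholds. With the replicate block, 7 were higher and 5 lower (Itga1 had an adjusted p of 0.055 in edgeR), and no other member's call changed. Deviations of same-numbered samples had correlations of 0.032, -0.067 and 0.021. With 3 samples per group, these cannot tell whether same-numbered samples shared a day or batch. Past the study's thresholds, 0 members remained with the difference in RPKM and 7 at a 1.5-fold change and an adjusted p of 0.1. With limma on TPM, 6 ligand genes were lower with either pseudocount, and of all genes 2992 were higher and 1323 lower with log2(TPM + 1), against 2621 and 2648. Members went from 7 higher and 6 lower to 7 and 4. With a sample left out, the lower adaptor genes numbered 2 to 5 (5 without Ctrl replicate 3) and the higher basement membrane genes 2 to 4 (2 without Nfkbiz KO replicate 1 or 2). The log2 ratio of summed levels ranged from 0.12 to 0.26 for α genes, from -0.07 to 0.01 for β genes and from 0.41 to 0.60 for laminin genes with a sample left out, and was -0.11 for β genes in RPKM. The causes were not tested. Signs changed for members that did not pass. With limma on log2(TPM + 1) and log2(TPM + 0.1), Itga10 had 0.01 and 0.04, Itga2b -0.01 and -0.06, Itgb1 0.03 and 0.03, Itgb8 0.00 and 0.00, and Lamb2 0.07 and 0.07. With a sample left out, Itga11 ranged from -0.12 to 0.30, Itgav from -0.03 to 0.06, Itga2b from -0.28 to 0.35, Itgb2 from -0.28 to 0.13, Lamb2 from -0.08 to 0.03 and Lamb3 from -0.50 to 0.31. Members with fewer than 60 reads in any sample had standard errors of 0.18 or more, which limits what could be detected for them.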
